A study of Mus musculus with 12 samples.

Results

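The collagen genes were taken as the 44 rows of the count table whose symbol is Col, a collagen type number, the letter a and a chain number, out of 28686 gene symbols in all. Of these, 43 averaged 5 or more counts per library and were tested, together with every other gene that did (18459 in total). The remaining gene, Col6a4, had 0 to 4 counts per library and was not tested. RNA was sequenced from cochlear tissue, the labelled tissue of the hearing organ, of mice on a mixed C57BL/6;129SV background at postnatal day 6. The 6 mutants were Sox2CreER/+Jag1fl/fl, in which a tamoxifen-activated Cre recombinase expressed from the Sox2 locus removes floxed Jag1, a Notch ligand, from supporting cells, the non-sensory cells that surround hair cells. The 6 controls were Sox2+/+ littermates, which carry no CreER allele, so that the groups differed at Sox2 as well as in Jag1. The labels do not give the Jag1 alleles of the controls. The study's methods use the name Sox2+/+ for mice with either Jag1+/fl or Jag1fl/fl alleles. The strain is that of the labels, while the study's methods name C57bl6/J for the Sox2 line and FVB/n for the floxed line. Pups of both groups received tamoxifen at postnatal days 0 and 1. The comparison asks which collagen genes differed between the genotypes in the week after deletion. Mutants and controls are called by their labelled replicate numbers.

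Collagens are secreted or membrane-bound proteins whose alpha chains wind around one another into a helix. Fibrillar collagens polymerize into banded fibrils, type IV collagen forms the sheet-like network of basement membranes, and fibril-associated collagens decorate the surface of fibrils. In the cochlea, types II, IX and XI make the fibrils of the tectorial membrane, the acellular sheet over the hair cells, and are also found in the basilar membrane below them and in cartilage of the otic capsule. Because the same chains are made in several places, counts from tissue RNA do not say which cells a transcript came from. The study's methods speak of cochlear tissues, while its results name the cochlear sensory epithelium as the tissue sequenced. The 44 genes were divided by type into 8 classes, led by the tectorial or basilar membrane class (types II, IX and XI, 6 genes), the other fibrillar collagens (types I, III, V, XXIV and XXVII, 8 genes) and the basement membrane class (types IV, VII, XV and XVIII, 9 genes).

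The 6 type IV genes lie as 3 pairs read in opposite directions from neighbouring starts, and the sequence shared by the closer 2 pairs is shown because paired chains are compared below. In the GRCm38 annotation (GENCODE M21), Col4a1 and Col4a2 start at positions 11312826 (minus strand) and 11312805 (plus strand) of chromosome 8, so that the genes overlap by 22 bases. Col4a4 and Col4a3 start 72 bp apart on chromosome 1, at 82586849 (minus strand) and 82586921 (plus strand). Col4a6 and Col4a5 start 1309 bp apart on chromosome X. The windows below run from 250 bases before to 50 bases after the start of the minus-strand gene, read 5′ to 3′ on its strand (RefSeq, GRCm38.p6), and capitals mark the bases from one gene start to the other, both included.
Col4a1 and Col4a2, chr8:11312777-11313076: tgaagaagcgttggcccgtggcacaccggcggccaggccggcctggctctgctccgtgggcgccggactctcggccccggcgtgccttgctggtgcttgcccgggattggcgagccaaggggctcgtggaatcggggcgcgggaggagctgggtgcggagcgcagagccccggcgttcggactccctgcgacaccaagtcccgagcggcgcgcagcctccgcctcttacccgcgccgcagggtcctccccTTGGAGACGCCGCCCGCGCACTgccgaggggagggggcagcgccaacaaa
Col4a4 and Col4a3, chr1:82586800-82587099: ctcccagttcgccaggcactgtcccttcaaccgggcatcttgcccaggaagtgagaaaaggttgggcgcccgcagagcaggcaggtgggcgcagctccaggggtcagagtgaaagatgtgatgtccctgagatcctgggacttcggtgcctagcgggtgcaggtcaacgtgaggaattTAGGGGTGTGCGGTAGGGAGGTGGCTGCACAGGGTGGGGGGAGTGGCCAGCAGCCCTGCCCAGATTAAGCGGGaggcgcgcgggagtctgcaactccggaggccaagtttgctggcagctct
The Col4a1 window was 74.0% G and C with 37 CpG dinucleotides, and the Col4a4 window was 63.3% with 14.

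Total counts were 28498549 to 34430252 per library in controls and 31899265 to 36134983 in mutants. Jag1, the deleted gene, had a lowest, median and highest level of 83.0, 104 and 118 CPM (counts scaled to a common library size with TMM factors) in controls and 24.2, 37.5 and 42.9 CPM in mutants. It was lower in each of the 6 mutants than in any control (log2 fold change −1.48, SE 0.13, adjusted p = 0.000257 by the edgeR quasi-likelihood test with Benjamini-Hochberg adjustment). Of 12 lists of cell type markers, neuron and Schwann cell markers differed most between the groups. At an unadjusted p under 0.05, 12 of 14 neuron and 12 of 13 Schwann cell markers were higher in mutants, where 6.52% of all genes tested were. None of either list was lower, where 4.04% of all genes were. Summed neuron markers reached 196 to 351 CPM in controls and 234 to 1459 CPM in mutants, and summed Schwann cell markers 500.4 to 1473 CPM and 1234 to 6309 CPM. Mutants 1 and 2 held the highest Schwann cell sums, and mutants 4, 1 and 2 the highest neuron sums. Among mesenchyme, cartilage and bone, endothelium and pericyte markers, 1 gene in each list was lower at that threshold, of 11, 11, 8 and 6 tested. So were 3 of 6 markers of the cells that make the tectorial membrane (4366 to 6074 CPM summed in controls, 3432 to 5235 CPM in mutants). Of supporting cell and macrophage markers, 3 of 10 and 3 of 8 were lower. No hair cell, melanocyte or stria, or dividing cell marker passed the unadjusted threshold. Of the 12 lists, only that of supporting cells held a gene with an edgeR adjusted p under 0.05 (1 gene), where 0.190% of all genes did. The supporting cell list includes Sox2, the locus at which the groups differ. Whether its lower values reflect cell makeup was not tested. No marker of the 12 lists was at 0 in all libraries. Hair cell (446 to 582 CPM over all mice) and supporting cell markers (1861 to 2389 CPM) were present in sum. The lowest marker of each list, Atoh1 and Hes5, averaged 0.402 and 0.314 CPM.

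Collagen transcripts made up 5.10 to 6.54% of all counts in the control libraries (5.82% ± 0.587, SD, n = 6) and 5.16 to 5.79% in the mutant libraries (5.51% ± 0.240, SD, n = 6). Col2a1, the chain of type II collagen, alone took 1.70 to 2.36% of counts in controls and 1.73 to 2.17% in mutants. By mean CPM it ranked 1 among all 28686 symbols, with Col9a1 at rank 3, Col11a2 at 5, Col1a2 at 6, Col9a2 at 12 and Col9a3 at 15. Counts were divided by transcript length to compare genes with one another (CPM per kb). On that scale the tectorial or basilar membrane class held 78.1 to 81.7% of the collagen total in controls and 78.7 to 81.8% in mutants. The other fibrillar class held 11.1 to 13.8% and 11.1 to 13.6%, and the basement membrane class 3.41 to 4.25% and 3.36 to 4.20%. The makeup of the collagen transcripts by class therefore covered overlapping ranges in the 2 genotypes.

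**Figure D1:**
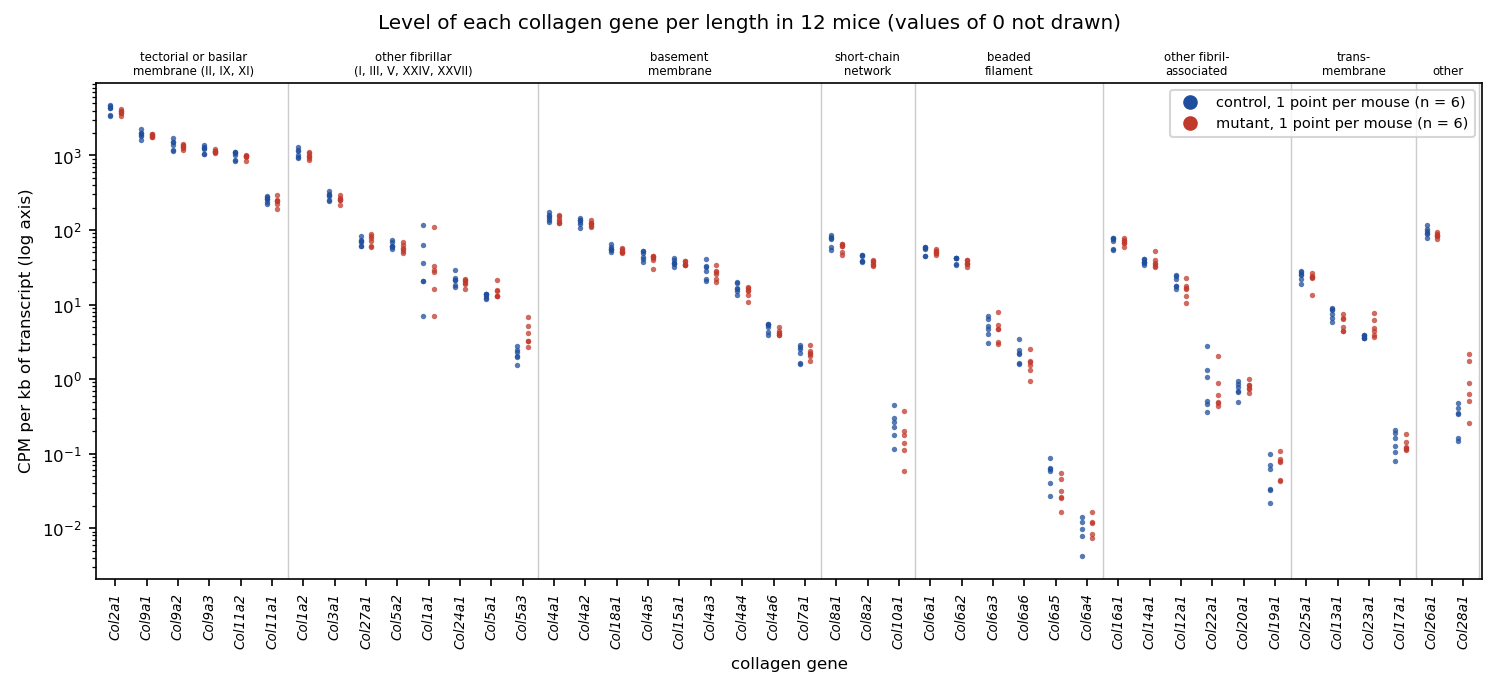
Level of each of the 44 collagen genes in CPM per kb of transcript on a log axis, with 1 point per mouse (blue, 6 controls; red, 6 mutants) and genes grouped by class. The 5 highest-ranking type II, IX and XI genes and Col1a2 lie near or above 1000 CPM per kb, and Col1a1 and Col22a1 are spread far more widely between mice than their neighbours.

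Within the tectorial or basilar membrane class, Col2a1 was the highest at 4129 ± 551 CPM per kb in controls and 3817 ± 309 in mutants (SD, n = 6, here and for the other levels given this way). The type IX genes, which encode a collagen that coats type II fibrils, followed at 1930 ± 207 and 1853 ± 79.2 CPM per kb for Col9a1, 1412 ± 230.3 and 1315 ± 88.2 for Col9a2, and 1210 ± 140 and 1137 ± 50.5 for Col9a3. The type XI chains, which sit inside type II fibrils and limit their width, stood at 1007 ± 125 and 958 ± 60.4 CPM per kb for Col11a2 and 258 ± 23.7 and 240 ± 32.4 for Col11a1. The ratios between these chains varied to different degrees over the 12 mice. Col9a2 over Col9a3 ranged from 1.09 to 1.24 per kb, Col9a1 over Col9a2 from 1.20 to 1.61, and Col11a2 over Col11a1 from 3.24 to 5.12. The highest ratio exceeded the lowest 1.14, 1.34 and 1.58-fold in that order. For Col2a1 over Col1a2, chains of different collagens, it did so 1.42-fold (3.30 to 4.69). In the annotation 6.1% of the exon length of Col9a3 overlaps Tcfl5 on the opposite strand, the highest share of any collagen gene, and the counts there cannot be assigned to one gene unless they were made by strand, which the sources used here do not state.

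The other fibrillar collagens were led by Col1a2, the second chain of type I collagen, at 1081 ± 147 CPM per kb in controls and 993 ± 92.2 in mutants. Col3a1, the type III chain of soft connective tissue, followed at 287 ± 34.2 and 256 ± 25.8, and Col27a1, a cartilage fibrillar collagen, at 69.9 ± 8.52 and 73.4 ± 12.2. Col5a2 reached 63.4 and 57.9 CPM per kb, and Col24a1, Col5a1 and Col5a3 were below 22 in both groups. The first chain of type I collagen, Col1a1 (chromosome 11, 94936224 to 94953042, plus strand, GRCm38), behaved unlike its partner and was singled out after its values were seen. Its levels were 41.8, 124, 213, 124, 375 and 698 CPM in controls 1 to 6 and 162, 195, 94.6, 174, 41.5 and 647 CPM in mutants 1 to 6. Control 6 and mutant 6 were highest and control 1 and mutant 5 lowest, so that the ranges of mutants and controls nearly coincided. The highest mouse exceeded the lowest 16.8-fold for Col1a1 but 1.48-fold for Col1a2, which ran from 4661 to 6889 CPM.

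Per kb, Col1a2 exceeded Col1a1 in every mouse, by 8.01-fold in control 6 and by up to 145-fold. The standard deviation of log2 CPM within genotype was 1.36 for Col1a1 against a median of 0.168 over the 31 collagen genes and 0.138 over all 6979 genes averaging 1000 or more counts. No exon of Col1a1 overlaps another annotated gene. The genotype difference of Col1a1 was small beside this spread (log2 fold change −0.26, SE 0.74, unadjusted p = 0.731). Col22a1, a collagen of tissue junctions, was high in the same mice. It reached 24.7 CPM in control 6, 18.2 in mutant 6, 11.8 in control 5 and 9.42 in control 3, against 3.21 to 7.74 CPM in the other 8 mice. Bglap, which encodes osteocalcin, a product of bone-forming cells, stood at 29.4, 17.9, 9.16 and 11.6 CPM in those 4 mice and at 0.191 to 5.30 CPM in the other 8. The bone markers Sp7 and Alpl had their highest value in control 6 as well (28.6 and 76.9 CPM) and their lowest in mutant 5 (7.49 and 21.7 CPM). Ibsp, another bone marker, was highest in mutant 4 instead (340 CPM, against 307 CPM in control 6), and the summed cartilage and bone markers were highest in control 4 (1981 CPM, against 1832 CPM in control 6), mice in which Col1a1 was at 174 and 124 CPM. With the mean score of the cartilage and bone list as a covariate, a fit added after the values were seen, the log2 fold change was 0.41 (SE 0.36, unadjusted p = 0.270) for Col1a1 and 0.26 (SE 0.36, unadjusted p = 0.485) for Col22a1, against −0.26 and −0.40 (SE 0.57) without it. The direction of both genes thus turned with that score and neither passed the threshold in either fit.

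**Figure D2:**
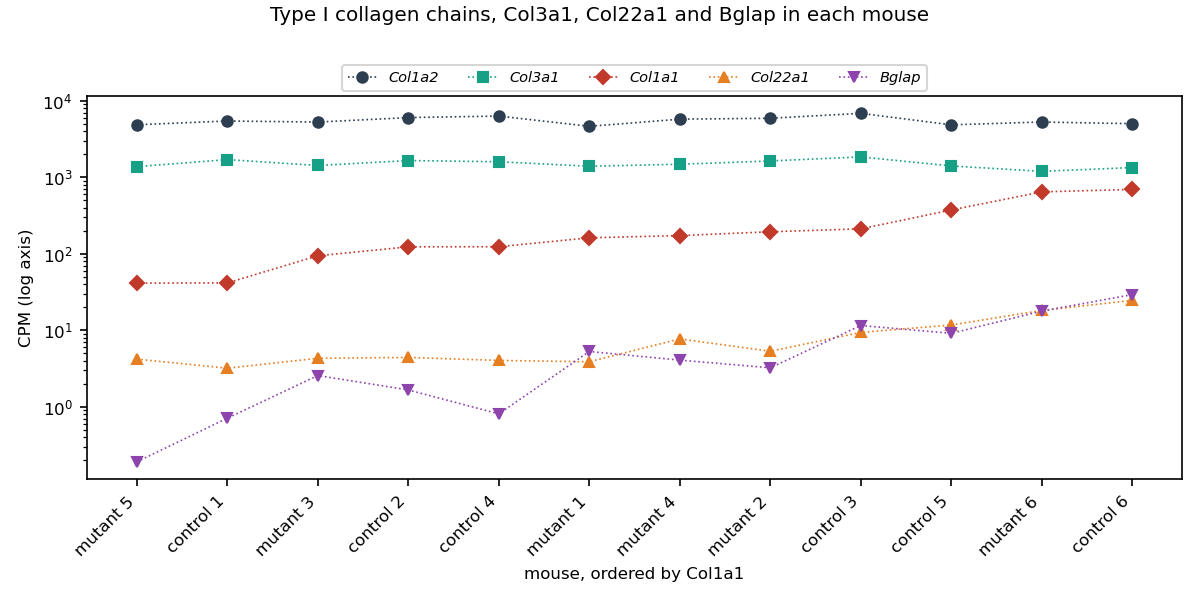
CPM of Col1a2, Col3a1, Col1a1, Col22a1 and the bone gene Bglap in each of the 12 mice on a log axis, ordered from the lowest to the highest Col1a1. Col1a2 and Col3a1 are nearly level, whereas Col1a1 climbs from 41.5 to 698 CPM and Col22a1 and Bglap are highest in the 4 mice at the right.

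The basement membrane class was led by the chains of the common type IV network, Col4a1 (150 ± 16.2 CPM per kb in controls, 138 ± 14.6 in mutants) and Col4a2 (129 ± 13.6 and 121 ± 9.76). Col18a1, a vessel and epithelial basement membrane collagen whose end fragment is endostatin, followed at 56.4 ± 4.99 and 52.6 ± 2.88. Col4a3, Col4a4 and Col4a5, the chains altered in Alport syndrome with its hearing loss, stood at 29.6, 16.9 and 46.1 CPM per kb in controls and 26.1, 14.9 and 40.8 in mutants. The 3 pairs of type IV genes differed in how evenly their 2 members were expressed. Col4a1 over Col4a2 ranged only from 1.05 to 1.24 per kb in the 12 mice and Col4a3 over Col4a4 from 1.40 to 2.11, while Col4a5 exceeded Col4a6 by 7.71 to 11.5-fold. Col15a1 reached 36.5 and 35.4 CPM per kb, and Col7a1, the anchoring fibril collagen of skin, 2.27 and 2.24.

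Among the beaded filament genes, Col6a1 (53.8 ± 6.77 CPM per kb in controls, 50.9 ± 3.60 in mutants) and Col6a2 (39.4 ± 3.64 and 36.1 ± 2.98) kept a ratio of 1.29 to 1.58, while Col6a3, the third chain of the classical type VI molecule, was at 5.04 ± 1.48 and 4.77 ± 1.79. The short-chain network collagens of type VIII reached 72.3 ± 12.8 and 58.7 ± 8.02 CPM per kb for Col8a1 and 41.5 ± 4.17 and 36.3 ± 2.72 for Col8a2. Col10a1, the marker of hypertrophic cartilage, had only 6 to 49 counts per library (0.256 ± 0.117 and 0.176 ± 0.107 CPM per kb). Of the other fibril-associated genes, Col16a1 stood at 68.3 ± 10.8 and 69.2 ± 6.20, Col14a1 at 37.6 ± 2.57 and 37.7 ± 7.32, and Col12a1 at 20.4 ± 3.60 and 16.2 ± 4.21 CPM per kb. The transmembrane genes Col25a1, Col13a1 and Col23a1 reached 24.5 ± 3.54, 7.70 ± 1.29 and 3.69 ± 0.157 in controls and 22.3 ± 4.49, 5.73 ± 1.31 and 5.12 ± 1.58 in mutants. Col26a1, a gene outside these families, was at 95.7 ± 13.8 and 85.5 ± 6.72. The remaining genes of these 5 classes (Col6a4, Col6a5, Col6a6, Col17a1, Col19a1, Col20a1, Col22a1 and Col28a1) were at or below 2.26 CPM per kb in both groups.

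None of the 43 collagen genes passed an adjusted p of 0.05 in the edgeR test, where 0.190% of all genes tested did (35 genes). With DESeq2, 2 collagen genes passed (Col5a3 and Col28a1, both higher in mutants), where 3.37% of all genes did, and with limma-voom 0 passed. At an unadjusted p under 0.05 in the edgeR test, 8 of 43 collagen genes (18.6%) differed, against 10.6% of all genes. These were 4 genes higher in mutants (Col5a3, Col28a1, Col23a1 and Col5a1), where 6.52% of all genes were, and 4 lower (Col13a1, Col8a2, Col8a1 and Col6a5), where 4.04% were. The log2 fold change was below 0 for 34 of the 43 genes (79.1%), against 49.1% of all genes, with a median of −0.12 against 0.00. Levels of mutants and controls did not overlap for 0 collagen genes and for 0.997% of all genes. Without mutant 5, 2 collagen genes (Col5a3 and Col28a1) had an edgeR adjusted p under 0.05, as did 356 of all 18422 genes then tested. Without control 2 the number at an unadjusted p was 5, where 9.23% of all genes were. In tissue RNA, fewer cells of a type and less RNA per cell cannot be told apart.

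The 3 main classes were alike in their medians and unlike in their spread. All 6 genes of the tectorial or basilar membrane class were below 0 by a small amount, from −0.11 for Col2a1 to −0.06 for Col9a1 (median −0.10), with SEs of 0.08 to 0.10, and none had an unadjusted p under 0.05. The summed level of the class had a lowest, median and highest value of 37808, 45564 and 50773 CPM in controls and 38025, 41516 and 44537 CPM in mutants, so that every mutant lay within the range of controls. All 9 genes of the basement membrane class were likewise below 0, from −0.19 for Col4a6 to −0.01 for Col7a1 (median −0.12), and none had an unadjusted p under 0.05. Their summed level was 2661, 3130 and 3450 CPM in controls and 2543, 2855 and 3102 CPM in mutants, which overlapped. The other fibrillar class also had a median of −0.13 but reached from −0.26 (Col1a1) to 0.95 (Col5a3), with 5 of 8 genes below 0 and 2, both of type V, higher at an unadjusted p under 0.05. Its sum was 7809, 8748 and 10389 CPM in controls and 7275, 8170 and 9293 CPM in mutants, which again overlapped. Without control 6 the median of this class was −0.01. The differences between classes were not tested.

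Of the smaller classes, the 5 beaded filament genes tested and the 3 short-chain genes were all below 0 (medians −0.13 and −0.30), with 1 and 2 genes at an unadjusted p under 0.05. The 6 other fibril-associated genes had 2 below 0, a median of 0.01 and none at that threshold. The 4 transmembrane genes had 3 below 0, a median of −0.13, and 1 gene at that threshold in each direction. Of the pair of remaining genes, Col28a1 was above 0 and Col26a1 below it (log2 fold change −0.16, SE 0.09, unadjusted p = 0.0965).

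**Figure D3:**
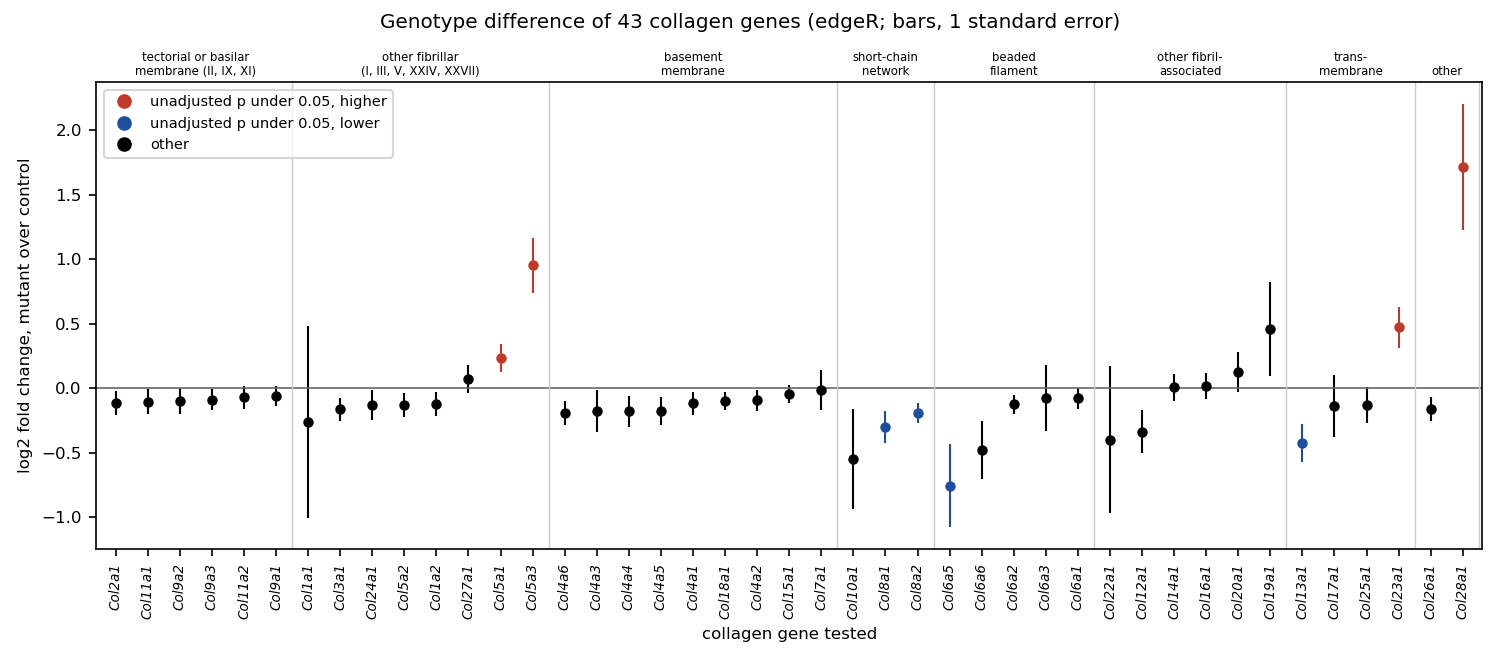
Log2 fold change of mutants over controls for the 43 collagen genes tested, by class, with bars of 1 standard error and colour for an unadjusted p under 0.05 (red, 4 genes higher; blue, 4 lower). The tectorial or basilar membrane genes lie in a tight row between −0.11 and −0.06, and Col5a3 and Col28a1 stand highest at 0.95 and 1.72.

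The gene with the smallest p was Col5a3, the third chain of type V collagen, a minor fibrillar collagen known to be made by Schwann cells among other cells (chromosome 9, 20770050 to 20815067, minus strand, GRCm38). It measured 12.6, 12.3, 14.0, 9.56, 14.9 and 16.8 CPM in controls 1 to 6 and 31.8, 41.9, 16.4, 19.9, 19.8 and 25.1 CPM in mutants 1 to 6. Mutants 2 and 1 were highest, and mutant 3 alone lay below the highest control. The log2 fold change was 0.95 (SE 0.21, unadjusted p = 0.000622, adjusted p = 0.0834 by the edgeR test, exact permutation p = 0.00433, two-sided). With DESeq2 the adjusted p was 0.000979, and without mutant 5 the edgeR adjusted p was 0.0350, both under 0.05. Col5a1, the main type V chain (chromosome 2, 27886425 to 28039514, plus strand), measured 98.5, 112 and 116 CPM in controls and 110, 119 and 180 CPM in mutants as lowest, median and highest. The groups overlapped, and mutant 2 stood apart at the top. Its log2 fold change was 0.23 (SE 0.11, unadjusted p = 0.0499, edgeR adjusted p = 0.473, exact permutation p = 0.0736), which became 0.12 with an unadjusted p of 0.130 without mutant 2. Col5a2, the partner chain, was not higher (log2 fold change −0.13, SE 0.09, unadjusted p = 0.170).

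The makeup of type V transcripts followed these values. Per kb, Col5a1 exceeded Col5a3 by 5.04 to 7.50-fold in controls and by 2.92 to 4.89-fold in mutants, and Col5a2 exceeded Col5a1 by 4.11 to 5.35-fold in controls and by 3.26 to 4.35-fold in mutants. The first ratio did not overlap between the genotypes, while the second did. These ratios were picked out after their values were seen and rest on the same counts as the tests above.

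**Figure D4:**
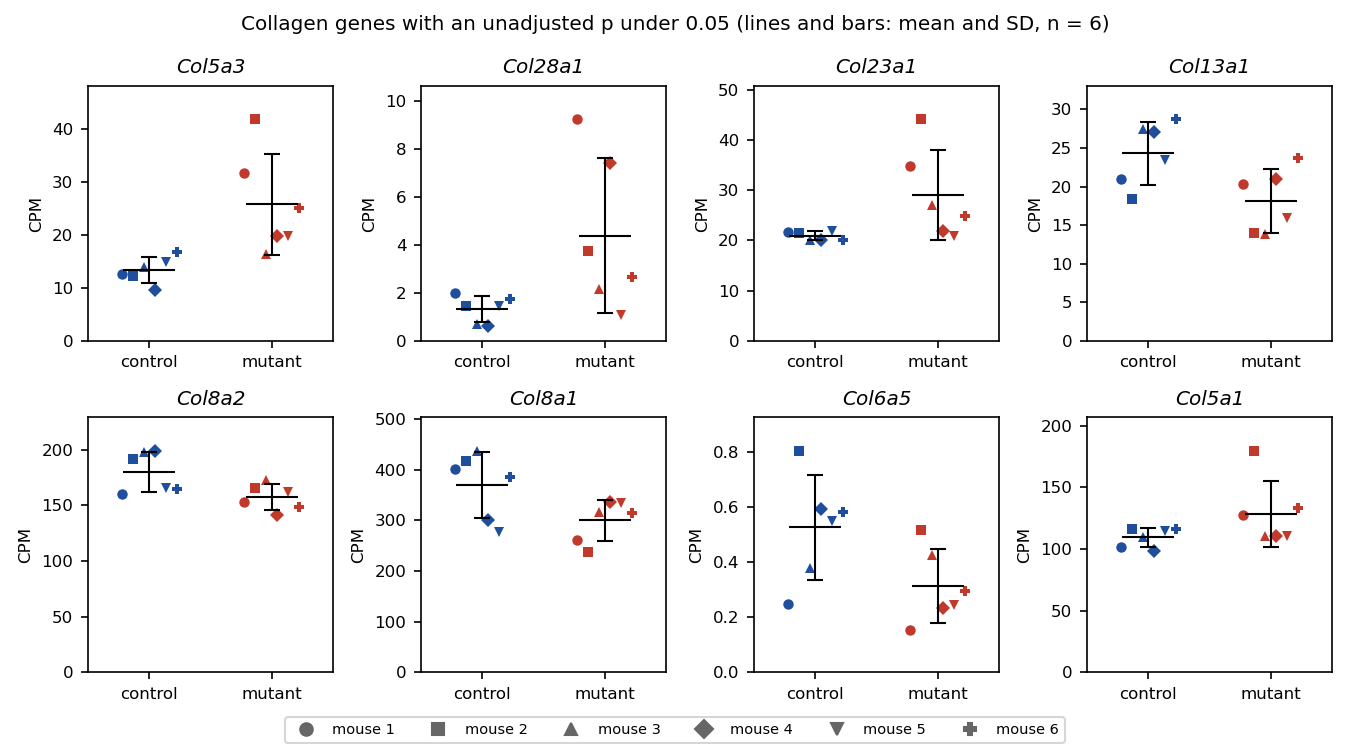
CPM of the 8 collagen genes with an unadjusted p under 0.05 in each mouse (symbols mark the replicate number, horizontal lines the mean and bars the SD, n = 6 per group; axes start at 0). The 4 higher genes show wide spread among mutants with mutant 1 or mutant 2 highest in each, and the 4 lower genes show overlapping groups.

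Col28a1, the type XXVIII chain, a collagen of peripheral nerve where it surrounds glial cells (chromosome 6, 7997808 to 8192617, minus strand), was a low-count gene with 20 to 301 counts per library. It measured 2.0, 1.46, 0.687, 0.623, 1.47 and 1.74 CPM in controls 1 to 6 and 9.23, 3.76, 2.17, 7.42, 1.09 and 2.64 CPM in mutants 1 to 6. Mutants 1 and 4 were far above the rest, and mutant 5 lay inside the range of controls. The log2 fold change was 1.72 (SE 0.49, unadjusted p = 0.00405, edgeR adjusted p = 0.143, exact permutation p = 0.0260). The adjusted p was 0.00644 with DESeq2 and 0.0359 by edgeR without mutant 5. Col23a1, a transmembrane collagen (chromosome 11, 51289920 to 51583918, plus strand), measured 20.1, 20.8 and 21.9 CPM in controls and 20.9, 26.0 and 44.1 CPM in mutants as lowest, median and highest. Controls were nearly uniform, mutants 2 (44.1) and 1 (34.9) were highest, and mutants 4 and 5 lay at the level of controls. The log2 fold change was 0.47 (SE 0.16, unadjusted p = 0.00921, edgeR adjusted p = 0.214, exact permutation p = 0.0152), and 0.31 without mutant 2.

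Nerve and glial marker sums followed the order of these 4 genes only in part. Summed Schwann cell markers were 6309, 4816, 2430, 1234, 1332 and 2324 CPM in mutants 1 to 6, and summed neuron markers 886, 755, 366, 1459, 234 and 497 CPM. Mutants 1 and 2, the highest for Col5a3 and Col23a1, held the highest Schwann cell sums, and mutants 1 and 4, the highest for Col28a1, held the highest neuron sums. Mutant 5, the lowest mutant for Col28a1 and Col23a1, held the lowest neuron sum. Other mice departed from this order. Mutant 4, with Col28a1 at 7.42 CPM and Col23a1 at 21.9 CPM, held the lowest Schwann cell sum of the mutants. Mutant 3, the lowest mutant for Col5a3 (16.4 CPM), held a higher Schwann cell sum than mutants 4, 5 and 6. Control 1 had a Schwann cell sum of 1473 CPM, above mutants 4 and 5. Its Col5a3 was at 12.6 CPM, against 19.9 and 19.8 CPM in those mutants. When scores of the neuron and the Schwann cell lists entered the fit as covariates, no collagen gene had an unadjusted p under 0.05, where 2.78% of all genes did, and the log2 fold change was 0.28 for Col5a3 (unadjusted p = 0.277), −0.46 for Col28a1, −0.036 for Col23a1 and −0.046 for Col5a1. In that fit 1 gene of all tested passed the adjusted threshold, and the adjusted p of Jag1 itself was 0.101 by edgeR. With mutants 1, 2 and 4 left out, chosen after their marker levels were seen, the log2 fold change was 0.62 for Col5a3 (unadjusted p = 0.00281), 0.56 for Col28a1 (unadjusted p = 0.158), 0.22 for Col23a1 (unadjusted p = 0.0264) and 0.11 for Col5a1 (unadjusted p = 0.200). The part of nerve tissue in these differences was not tested beyond these values.

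The promoter windows of the 2 genes that passed with DESeq2 are shown because they differ in base makeup, each from 250 bases before to 50 after the gene start, read 5′ to 3′ on the minus strand (RefSeq, GRCm38.p6). Capitals mark the letters TGGGAA, the core of the site bound by RBPJ, the DNA-binding partner of Notch.
Col5a3, chr9:20815018-20815317: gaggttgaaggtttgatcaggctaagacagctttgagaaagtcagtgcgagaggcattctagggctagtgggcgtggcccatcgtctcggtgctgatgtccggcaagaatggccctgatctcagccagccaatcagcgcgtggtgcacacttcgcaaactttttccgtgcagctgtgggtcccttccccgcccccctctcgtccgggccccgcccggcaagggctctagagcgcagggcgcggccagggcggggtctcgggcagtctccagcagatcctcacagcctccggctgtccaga
Col28a1, chr6:8192568-8192867: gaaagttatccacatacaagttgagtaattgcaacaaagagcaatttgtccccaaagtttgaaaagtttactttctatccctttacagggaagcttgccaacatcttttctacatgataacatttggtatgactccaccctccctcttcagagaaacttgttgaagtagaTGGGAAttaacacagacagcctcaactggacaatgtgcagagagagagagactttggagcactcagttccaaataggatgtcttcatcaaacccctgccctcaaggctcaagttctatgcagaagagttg
The Col5a3 window was 63.3% G and C with 20 CpG dinucleotides and had no TGGGAA on either strand. The Col28a1 window was 41.7% G and C with 0 CpG and held 1 TGGGAA. Windows were found for 35 of the 44 collagen genes (38 windows, since some genes have more than one start), with a median of 59.8% G and C against 52.7% in all 32851 windows. TGGGAA on either strand was in 12 of the 38 (31.6%) and in 25.6% of all windows. ACAAAG, the core of the SOX factor site, was in 5 (13.2%) and 18.7%, TATAAA in 5 (13.2%) and 13.6%, and CACGTG, an E-box that HEY factors can bind, in 0 and 7.15%. None of these motifs contains another, and a match is only a description of these letters.

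Among the genes lower in mutants, Col13a1, a transmembrane collagen of cell junctions and the neuromuscular synapse (chromosome 10, 61838236 to 61979108, minus strand), had the smallest p. It measured 18.4, 25.3 and 28.7 CPM in controls and 13.9, 18.1 and 23.7 CPM in mutants as lowest, median and highest. Every mutant was below the control median, although the groups overlapped. The log2 fold change was −0.43 (SE 0.15, unadjusted p = 0.0129, edgeR adjusted p = 0.256, exact permutation p = 0.0303). The type VIII genes, whose chains form hexagonal networks around vessels and in the eye, were both lower at an unadjusted p. Col8a2 (chromosome 4, 126286793 to 126314330, plus strand) measured 161, 179 and 199 CPM in controls and 141, 158 and 173 CPM in mutants (log2 fold change −0.19, SE 0.07, unadjusted p = 0.0205, edgeR adjusted p = 0.322, exact permutation p = 0.0390). Col8a1 (chromosome 16, 57624258 to 57754737, minus strand) measured 277, 393 and 437 CPM in controls and 237, 315 and 336 CPM in mutants (log2 fold change −0.30, SE 0.12, unadjusted p = 0.0267, edgeR adjusted p = 0.367, exact permutation p = 0.0606). No mutant exceeded the control median of either gene, and in both the lowest controls lay among the mutants. Endothelium markers summed to 630 to 694 CPM in controls and 568 to 658 CPM in mutants, and pericyte markers to 908 to 1060 CPM and 826 to 979 CPM, and their part in the type VIII values was not tested. Col6a5 (chromosome 9, 105856078 to 105960643, minus strand) had 5 to 27 counts per library and measured 0.249, 0.565 and 0.803 CPM in controls and 0.153, 0.271 and 0.515 CPM in mutants (log2 fold change −0.76, SE 0.32, unadjusted p = 0.0335, edgeR adjusted p = 0.401, exact permutation p = 0.0541). Leaving out single mice took the unadjusted p of Col8a1 to at most 0.0674, of Col8a2 to 0.0510 and of Col6a5 to 0.0921, while that of Col13a1 stayed at or below 0.0324.

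The other genes of the pathway were taken from a list of 61 genes that modify, fold, cut, cross-link, bind or degrade collagen, all of which were tested. None passed an adjusted p of 0.05 in the edgeR test, where 0.190% of all genes did. With DESeq2, 4 did (P4ha2, Mrc2, Fmod and P4ha3, all lower), where 3.37% of all genes did. At an unadjusted p under 0.05 in the edgeR test, 16 of 61 (26.2%) were lower in mutants, against 4.04% of all genes, and 0 were higher. The log2 fold change was below 0 for 50 of the 61 (82.0%), against 49.1% of all genes, with a median of −0.11 against 0.00.

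Prolyl and lysyl modification, which stabilizes the helix and prepares cross-links, held 5 of the 16 among 15 genes. P4ha2, a catalytic subunit of prolyl 4-hydroxylase, measured 8.91, 16.4 and 20.9 CPM in controls and 5.21, 8.0 and 9.92 CPM in mutants as lowest, median and highest. A single control lay within the range of mutants, and the log2 fold change was −1.01 (SE 0.21, unadjusted p = 0.000263, edgeR adjusted p = 0.0725), a larger fold difference than that of any collagen gene but Col28a1. P4ha3 was at −0.31 (unadjusted p = 0.00387), and P4ha1, P3h2 and Plod2 were the other 3. Ppib, a prolyl isomerase, was the only gene of the group above 0, at 0.01. Of 5 chaperone and export genes, Serpinh1, the collagen chaperone HSP47, was at −0.21 (unadjusted p = 0.0386), followed by Fkbp10 at −0.10 (unadjusted p = 0.239), and Sec23a was at 0.03. Of 8 procollagen processing genes, the enhancers of propeptide removal Pcolce (−0.19, unadjusted p = 0.0391) and Pcolce2 (−0.24, unadjusted p = 0.0458) passed, and the proteases Tll1 and Tll2 were at 0.03 and 0.01.

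Of 5 cross-linking enzymes, Loxl1 was at −0.33 (unadjusted p = 0.00488), Loxl3 at −0.09 (unadjusted p = 0.274) and Loxl2 at 0.04. Of 8 receptors, Mrc2, which carries collagen into cells for breakdown, measured 262, 283 and 300.2 CPM in controls and 229, 240.0 and 250.3 CPM in mutants. Of the 61 genes of the list it was the only 1 whose groups did not overlap, where 0.997% of all genes tested did not. Its log2 fold change was −0.23 (SE 0.05, unadjusted p = 0.000706, edgeR adjusted p = 0.0846). Itga11, an integrin chain that binds fibrillar collagen, was at −0.35 (unadjusted p = 0.0105), Ddr1 was the other of the 3 receptors that passed, and Lair1 and Itga10 were at 0.18 and 0.09. Of 8 small proteoglycans on fibrils, 4 passed and all 8 were below 0. Fmod, fibromodulin, measured 72.5, 95.5 and 118 CPM in controls and 60.0, 72.5 and 79.8 CPM in mutants (log2 fold change −0.42, SE 0.10, unadjusted p = 0.00101, edgeR adjusted p = 0.0937), and Bgn, biglycan, was at −0.20 (unadjusted p = 0.0107). Of 12 genes for degradation and its inhibitors, 0 passed. Mmp14 was at −0.12 (unadjusted p = 0.0818), Timp2 at −0.08, Mmp16 at 0.07 and Timp3 at 0.03. Summed mesenchyme markers, of which Dcn and Lum are also on the pathway list, ran from 3734 to 4245 CPM in controls and from 3425 to 4058 CPM in mutants. The count of 16 was 2 when the fit held neuron and Schwann scores, where 1.45% of all genes were lower at that threshold. It was 11 when the fit held the mesenchyme score (3.93% of all genes) and 8 with mutants 1, 2 and 4 left out (3.63%), and the part of cell makeup in it was not tested further.

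**Figure D5:**
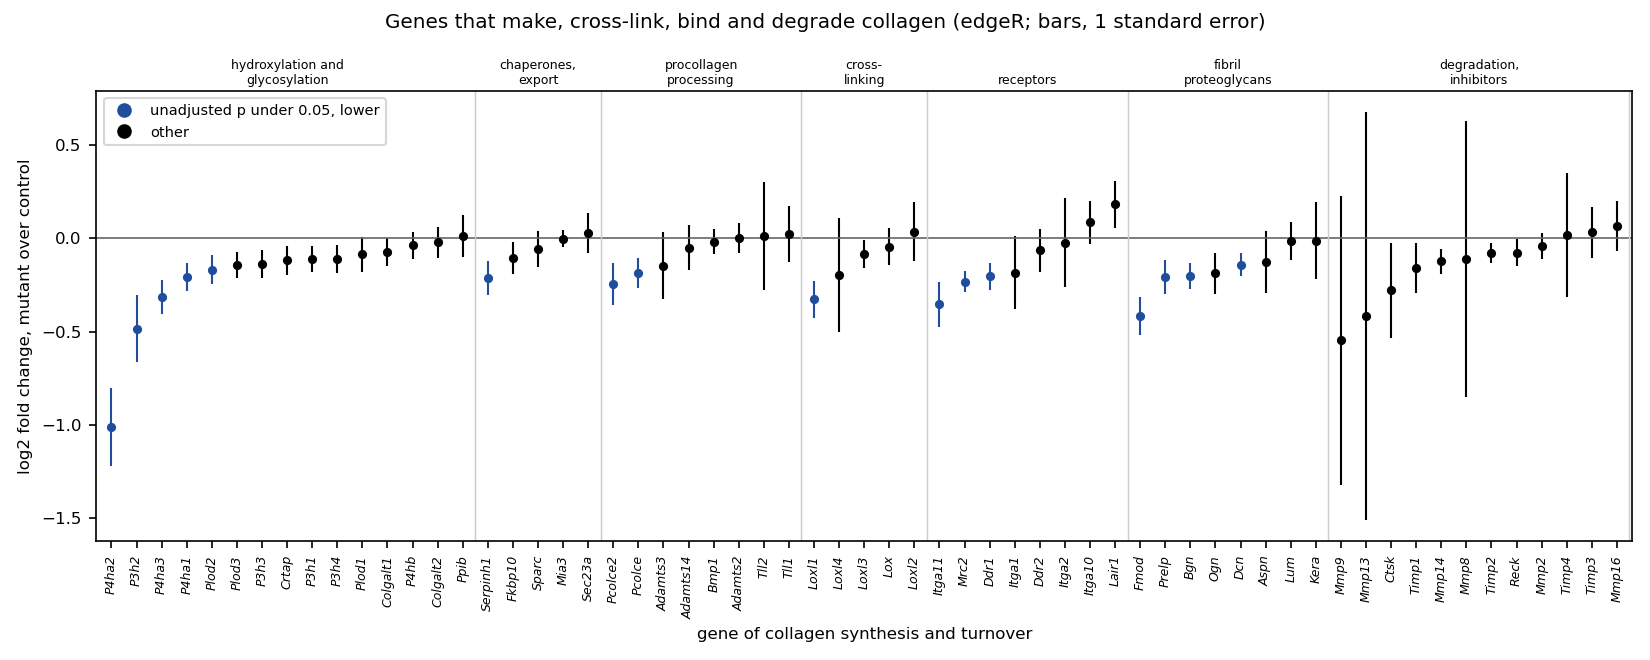
Log2 fold change of mutants over controls for the 61 genes of collagen synthesis and turnover, grouped by role, with bars of 1 standard error. Blue marks the 16 genes with an unadjusted p under 0.05, all of them below 0 and none among degradation genes and inhibitors, with P4ha2 lowest at −1.01.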

How the data were processed

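RNA of 12 cochlear samples (RNA integrity number 9.7 to 10, single-end reads of 100 nt) was sequenced by the authors. Per the submitters' processing notes the tools were Trimmomatic 0.32, STAR 2.4.2a, HTSeq 0.9.1 and DESeq2 1.10.1, and the build was GRCm38.p4. The deposited table holds raw read counts per gene symbol, not normalized, and a depth of 28498549 to 36134983 counts per library limits precision only for low genes. The authors' table of their own DESeq2 comparison (fold changes and p-values) was not used. Whether counting used strand is not given in the sources used here.

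Groups were read from the sample descriptions. Counts were scaled by TMM and tested on the whole table, for genes averaging 5 or more counts, with the edgeR 4.0.16 quasi-likelihood F-test (robust, R 4.3.3), and p-values were adjusted by Benjamini-Hochberg over 18459 genes. Single genes were also tested by exact permutation of log2(CPM + 0.1) over the 924 divisions of the mice, whose smallest two-sided p is 0.00216. Alternatives were DESeq2 1.42.0, limma-voom (limma 3.58.1), other scalings and filters, covariates and left-out mice. Levels per kb used the longest basic protein-coding GENCODE M21 transcript of each gene. The genes described were the collagen genes with an unadjusted p under 0.05, the 3 highest per kb in each class, and in each role of the pathway list the 2 with the smallest p in each direction. Chain partners, Col1a1, Col22a1, the other pathway genes at an unadjusted p under 0.05 and bone markers were named after their values were seen. The collagen genes, classes, pathway list and marker lists were chosen with earlier results of these data known. The replicate numbers are not stated to mark litters or days, and the labels call the samples biological replicates without saying how many cochleae each held. No same-genotype libraries were duplicates (chi-square per degree of freedom 13.5 to 71.4 over 30 pairs).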

Additional observations from a re-analysis of the deposited data

Results flagged for a closer look

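The spread among the 6 mice of each genotype was examined in 146 sets of 6 values, those of the 43 collagen genes tested, of the pathway genes named with a value or at an unadjusted p under 0.05, and of Jag1. Chance alone marks about 5% of such sets (1 in 20). In 13 sets 1 mouse stood far from the other 5. Among collagen genes, mutant 2 was high for Col5a1 (180 CPM, next 133), mutant 1 was low for Col25a1 (90.9 CPM, next 153), mutant 3 was low for Col11a2 (5092 CPM, next 5767), and mutant 6 was high for Col1a1 (647 CPM, next 195) and for Col22a1 (18.2 CPM, next 7.74). Among pathway genes, mutant 1 was high for Fkbp10 (329 CPM, next 285) and low for Sec23a (91.3 CPM, next 128), Timp2 (871 CPM, next 943), Mmp16 (16.3 CPM, next 26.1) and Timp3 (261 CPM, next 410). Mutant 3 was high for P4ha1 (121 CPM, next 101), control 6 was high for P3h2 (3.75 CPM, next 2.61), and control 5 was low for Plod2 (285 CPM, next 325). Mutant 1 also held the highest summed Schwann cell markers (6309 CPM).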

How the results depend on the processing

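The 25 alternatives left the direction of the 8 single collagen genes as it was in 196 of 199 values. These genes were chosen by their p in the same counts that the alternatives refit, so an unchanged direction was likely from the outset. The 3 exceptions came with neuron and Schwann cell scores as covariates, where the log2 fold change was −0.036 for Col23a1, −0.46 for Col28a1 and −0.046 for Col5a1. The cause was not tested. In that fit 0 collagen genes and 2 pathway genes had an unadjusted p under 0.05, as did 2.78% of all genes against 10.6% in the fit without scores, and Jag1 was at −1.39 with an edgeR adjusted p of 0.101. With the mesenchyme score the number of collagen genes at an unadjusted p under 0.05 was 5, and with mutants 1, 2 and 4 left out the number of pathway genes was 8, with fewer samples tested. DESeq2 gave 2 collagen genes with an adjusted p under 0.05. Over the 12 edgeR fits that leave out 1 mouse, 0 to 2 collagen genes had an adjusted p under 0.05 (2 without mutant 5). At an unadjusted p under 0.05 there were 5 to 10 collagen genes (5 without control 2) and 11 to 16 pathway genes. In the same fits 8.39 to 14.2% of all genes were at that threshold. The log2 fold change of Jag1 was −1.54 to −1.39. The number of all genes with an adjusted p under 0.05 was 619 with DESeq2, 131 with the replicate block and 14 to 356 when 1 mouse was left out, against 35. The replicate block, a paired fit by replicate number, gave 0 collagen genes with an adjusted p under 0.05 (Col5a3 adjusted p = 0.0839 by edgeR). It gave 9 with an unadjusted p under 0.05, where 9.13% of all genes were. Deviations of same-numbered mice correlated at −0.19 to 0.27, and 2 of 6 mutants correlated best with the control of their own number, so the numbers were not taken as pairs. Depth limits Col6a4, Col6a5, Col10a1, Col17a1, Col19a1 and Col28a1, each below 50 counts in at least 1 library.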
